A study of Rattus norvegicus with 12 samples.

Results

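The genes described here are the protein-coding subunits of the mitochondrial respiratory chain in whole rat bladder, read in 12 RNA sequencing libraries from control rats and from rats whose spinal cord was cut. Members were chosen by name: every protein-coding row whose symbol is that of a numbered Ndufa, Ndufb, Ndufc, Ndufs or Ndufv subunit, one of Sdha to Sdhd, a Uqcr gene or a numbered Cox subunit, plus the 13 protein genes of the mitochondrial genome. The rule found 78 of 40154 genes, of which 65 are nuclear and 13 are mitochondrially encoded. The nuclear subunits of ATP synthase, Cox4i1 and Cox4i2 fall outside it and are given separately. By complex, assigned from the gene symbol alone, the nuclear members comprise 37 of complex I, 4 of complex II, 8 of complex III and 16 of complex IV, and the mitochondrial members comprise 7 of complex I, 1 of complex III, 3 of complex IV and 2 of complex V. Ndufa4 and Ndufa4l2 are thus counted under complex I, although Ndufa4 is now placed with complex IV. 

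The animals were female Wistar rats, 10 to 12 weeks old according to the labels, and the study set out to profile long noncoding RNA in the neurogenic bladder. In the injured groups the cord was fully cut at T10 with a scalpel (the design text gives T9 to T10), and bladders were taken 7, 14 or 28 days later. The control group is called normal, and no operation is named for it, so the operation and the injury cannot be told apart. Each of the 4 groups has 3 libraries, from a design of 20 rats, and nothing in the labels says which animal or how many animals a library holds. The p-values therefore measure only the spread between these libraries. All injured groups are compared with the same 3 controls.

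The respiratory chain passes electrons from NADH (complex I) and succinate (complex II) through complex III and cytochrome c to oxygen at complex IV, and the proton gradient it builds drives ATP synthase (complex V). Complexes I, III, IV and V are built from proteins of both genomes, while complex II is wholly nuclear. The mitochondrial protein genes are cut from long polycistronic transcripts, almost all of them from the heavy strand, with ND6 alone on the light strand. In the bladder, the detrusor smooth muscle and the urothelium both rely on oxidative metabolism.

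The promoters of the nuclear members were searched for letters of 3 factors, YY1, NRF1 and the ETS family (which includes Gabpa), that are known to act on respiratory genes. RefSeq promoter windows on the GRCr8 assembly, running from 250 bases before to 50 after the annotated start, were found for 57 of the 65 nuclear members. The letters AAGATGGCG, from the recognition sequence of YY1, occurred on either strand in 8 of the 57 (14.0%), against 1.73% of all 33469 windows and 3.05% of the 13524 windows of genes tested here. The letters GCGCANGCG, from that of NRF1, occurred in 12 of the 57 (21.1%), against 5.80% of all windows and 10.8% of those of tested genes. The ETS letters CCGGAAG occurred in 14 of the 57 (24.6%), against 8.75% and 14.5%. Each motif was searched on both strands and counted separately, so matches of different motifs may overlap. The YY1 and NRF1 letters were shortened to 9 bases after the matches of longer versions had been seen, so the shares are descriptions only. Of the 11 nuclear members called lower at day 7, 10 had a window, and 3 of these 10 held AAGATGGCG: Ndufb8, Ndufs4 and Ndufs7. Another 3 held the NRF1 letters (Ndufb10, Ndufb4 and Sdha) and 2 the ETS letters (Cox8a and Sdhd). The windows of the first 3 are printed 5′ to 3′, with the YY1 letters in capitals. They were picked because the YY1 letters stood out most among members against the windows of tested genes. All 3 matches lie on the gene's own strand and begin at base 22, 5 and 5, counted from 1 at the annotated start. They thus lie within transcribed sequence and hold ATG, the triplet of a start codon. Whether these letters are bound by YY1 or belong to the coding sequence was not tested. The windows lie at chr1:253362887-253363186, chr2:47794865-47795164 and chr7:10110449-10110748, each on the minus strand of GRCr8.
Ndufb8: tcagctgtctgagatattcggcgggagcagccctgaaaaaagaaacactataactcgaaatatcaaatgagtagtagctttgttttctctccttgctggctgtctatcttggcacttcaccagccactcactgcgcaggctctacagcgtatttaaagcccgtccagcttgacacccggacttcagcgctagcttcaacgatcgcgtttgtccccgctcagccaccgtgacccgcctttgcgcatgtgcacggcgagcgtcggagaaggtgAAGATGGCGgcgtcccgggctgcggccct
Ndufs4: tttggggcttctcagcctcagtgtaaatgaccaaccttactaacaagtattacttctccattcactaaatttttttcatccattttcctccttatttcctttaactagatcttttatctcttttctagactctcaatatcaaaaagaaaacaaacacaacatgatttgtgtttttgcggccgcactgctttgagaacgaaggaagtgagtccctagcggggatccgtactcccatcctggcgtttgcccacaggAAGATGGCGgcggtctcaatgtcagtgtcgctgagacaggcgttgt
Ndufs7: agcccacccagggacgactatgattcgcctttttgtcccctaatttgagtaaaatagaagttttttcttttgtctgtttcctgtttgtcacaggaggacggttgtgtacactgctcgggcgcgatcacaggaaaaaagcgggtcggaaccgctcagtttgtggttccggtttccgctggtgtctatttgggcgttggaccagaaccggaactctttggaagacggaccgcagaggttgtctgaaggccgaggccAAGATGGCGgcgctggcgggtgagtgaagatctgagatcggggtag
Of the 3 nuclear members called higher at day 28, 2 had a window. That of Cox5b (chr9:46417587-46417886, plus strand) held the ETS letters, in capitals, and neither held the other motifs.
Cox5b: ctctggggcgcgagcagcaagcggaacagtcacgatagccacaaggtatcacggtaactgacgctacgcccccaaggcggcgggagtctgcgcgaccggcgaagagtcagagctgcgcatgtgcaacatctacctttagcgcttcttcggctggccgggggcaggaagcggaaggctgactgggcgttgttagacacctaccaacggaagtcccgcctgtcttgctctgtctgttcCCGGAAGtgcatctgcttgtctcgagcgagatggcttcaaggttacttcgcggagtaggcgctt

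Library totals ran from 26275300 to 30747900 counts. Haemoglobin genes took 0.0341 to 0.370% of counts in 11 libraries and 2.89% in day-7 replicate 3, so counts of calls at day 7 are also given without it, an alternative chosen after seeing the data for the lists of other genes. Smooth muscle and urothelial markers, which define the labelled tissue, were present in every library, and their levels are given with the other markers at the end. In all, 17687 genes had enough counts to be tested, among them 58 of the 65 nuclear members and all 13 mitochondrial ones. A gene was called where it had an adjusted p under 0.05 in edgeR's quasi-likelihood test, adjusted over all genes tested. Levels are in CPM, counts scaled to a common library size after TMM, which corrects for the composition of a library. Fold changes are on the log2 scale with their SE.

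The 13 mitochondrial genes supplied far more transcript than all nuclear members together. They held 6.16, 7.07 and 6.59% of all counts in the 3 controls, 4.61, 4.86 and 4.29% at day 7, 6.52, 5.55 and 5.67% at day 14 and 6.97, 6.34 and 5.99% at day 28. The day-7 libraries were the lowest of the 12 and did not overlap any other group. The 65 nuclear members held 0.341, 0.340 and 0.352% in the controls, 0.273, 0.293 and 0.286% at day 7, 0.306, 0.312 and 0.322% at day 14 and 0.347, 0.339 and 0.373% at day 28. Here, too, the day-7 libraries lay below all others, the day-14 libraries lay below the controls, and the day-28 range covered the control range. On the TMM scale the differences were smaller: the log2 ratio to control at day 7 was −0.40 for the mitochondrial sum and −0.15 for the nuclear sum, against −0.53 and −0.28 as plain shares. On that scale the nuclear sums at day 7 (2881 to 3183 CPM) and day 14 (2927 to 3225 CPM) overlapped. Both lay below the controls (3346 to 3443 CPM). The mitochondrial sums at day 7 (47754 to 51612 CPM) still lay below all other libraries. The ratio of mitochondrial to nuclear counts was 18.0, 20.8 and 18.7 in the controls and 16.9, 16.6 and 15.0 at day 7, so the 3 day-7 libraries were below the 3 controls, whereas the ranges overlapped the controls at day 14 and day 28. No p is given for these sums. In whole tissue, fewer cells of a type and less RNA per cell cannot be told apart.

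**Figure D1:**
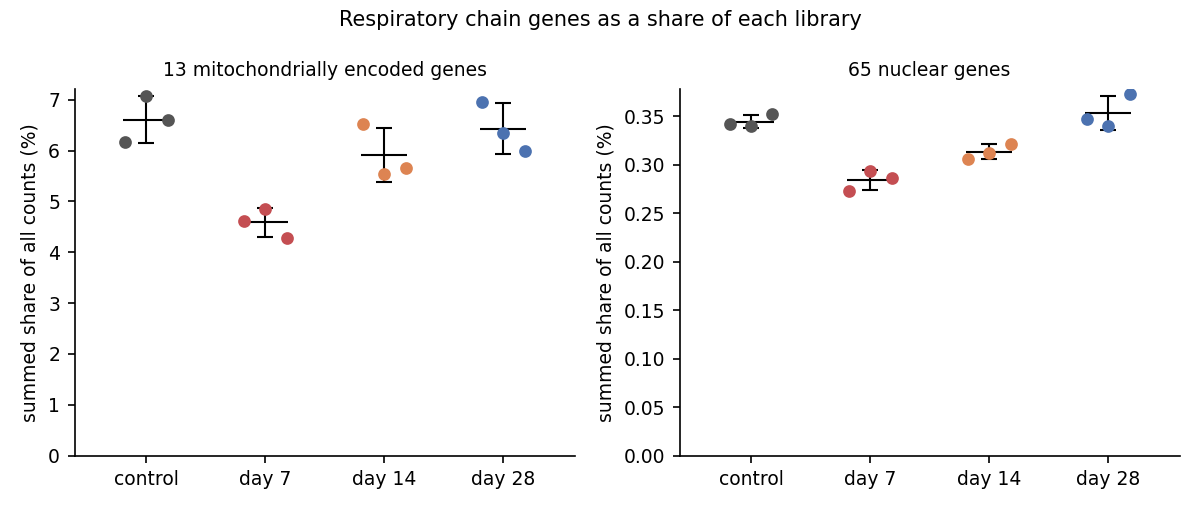
Summed counts of the 13 mitochondrially encoded genes (left) and the 65 nuclear genes (right) as a percentage of all counts in each library. Points are libraries, the bar is the mean and the whiskers the SD of 3 libraries; the day-7 libraries sit lowest in both panels.

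Per base of transcript, using the authors' TPM, COX1, the catalytic subunit of complex IV, and ATP6, part of the proton path of complex V, were highest, at 25322 ± 1802 and 26161 ± 1091 TPM (mean ± SD, n = 3 controls). Their order turned between the controls and the mean over all libraries. COX3, ND1 and COX2 followed on the mean over all libraries. The 3 most abundant nuclear members were Cox5b, Cox7b and Cox6a1, subunits of complex IV, at 467 ± 37.1, 463 ± 49.9 and 410.5 ± 20.1 TPM in the controls. The lowest of the tested members were Cox6a2 (6.42 ± 2.82 TPM), the muscle isoform of subunit 6A, and Ndufa4l2 (8.60 ± 3.86 TPM), followed by Ndufa10l1, Ndufc1 and Ndufa12. The 11 most abundant members were all mitochondrially encoded. ND4 and ND6 were the exceptions among mitochondrial genes, each listed below Cox5b.

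At day 7, the members that differed from control were mostly lower. Of the 58 nuclear members tested, 11 fell and 1 rose, and of the 13 mitochondrial ones 5 fell and none rose, where 26.1% of all tested genes were called, 15.6% as higher and 10.5% as lower. The median log2 fold change was −0.09 over the nuclear members, −0.31 over the mitochondrial ones and −0.01 over all genes tested. In 9 of the 13 mitochondrial genes and 19 of the 58 nuclear members all 3 day-7 libraries lay below all 3 controls, against 21.7% of all tested genes. They lay above in 4 nuclear and no mitochondrial members, against 23.6%. DESeq2 called 13 nuclear members, with Ndufa4l2 also higher, and 9 mitochondrial ones, all lower. Without day-7 replicate 3, the calls came to 8 nuclear and 2 mitochondrial genes, all lower, against 11.4% of all genes higher and 6.76% lower in that fit. Leaving out day-7 replicate 1 or control replicate 2 or 3 also left 2 mitochondrial calls, and leaving out control replicate 1 left 3. Without control replicate 3 or day-7 replicate 2 there were 7 nuclear calls, again all lower.

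**Figure D2:**
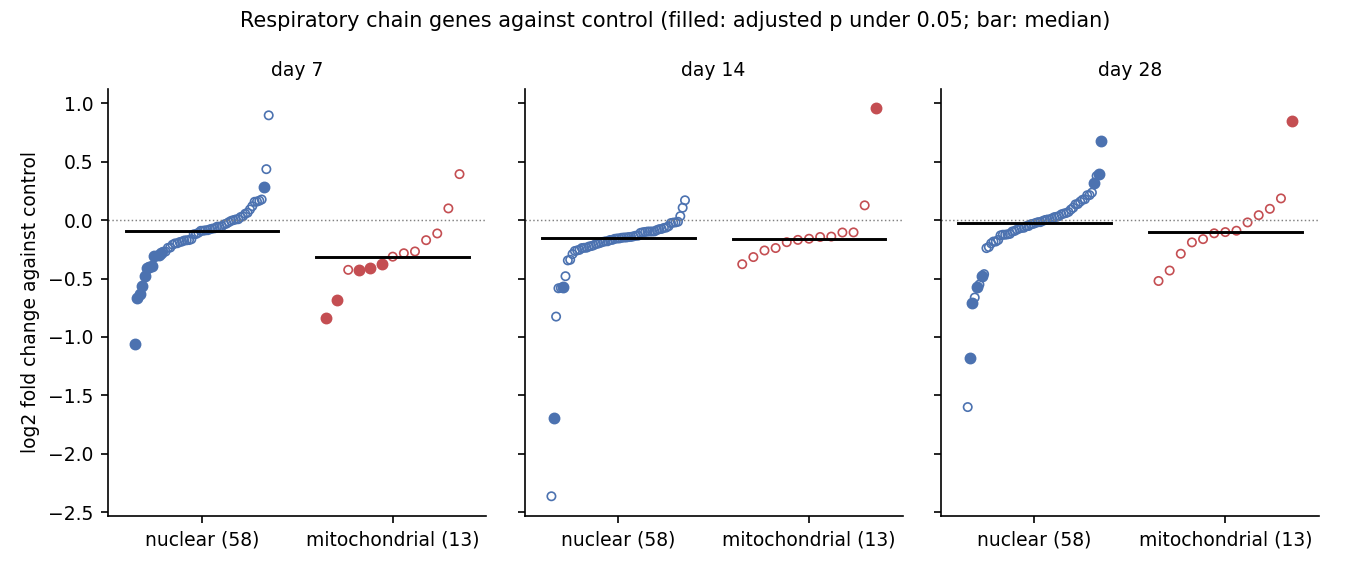
Log2 fold change against control at each day for the 58 nuclear and 13 mitochondrially encoded genes tested, sorted by size within each group. Filled points are called, open points are not, and the horizontal bar is the group's median, which is −0.31 for the mitochondrial genes at day 7.

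Along the mitochondrial genome the day-7 decrease was uneven. ND2 and ND1, complex I membrane subunits that are the first 2 protein genes of the heavy strand, fell most. ND2 was at 6020.4, 7262 and 6698 CPM in the control libraries, 3803, 4036 and 3368 CPM at day 7, 5602, 5023 and 4761 CPM at day 14 and 5839, 4696 and 4283 CPM at day 28. The day-7 libraries were all below every other library. Its log2 fold change was −0.83 ± 0.15 (SE, adjusted p = 0.00218) at day 7, −0.38 ± 0.15 (SE, adjusted p = 0.206) at day 14 and −0.43 ± 0.15 (SE, adjusted p = 0.0649) at day 28. All 3 libraries of each injured group were below the controls, although only the day-7 difference was called. ND1 was at 7950.0, 9035 and 8332 CPM in the control libraries, 5446, 5478 and 4847 CPM at day 7, 7459, 7116 and 6883 CPM at day 14 and 8156, 6479 and 6109 CPM at day 28, and it fell by 0.68 ± 0.14 on the log2 scale at day 7 (adjusted p = 0.00448). The calls of ND1 and ND2 at day 7 held in every alternative run, with adjusted p of at most 0.0204 and 0.0116.

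ND3, ATP6 and ATP8 also fell at day 7. ND3, a further complex I subunit, was at 372, 500.2 and 453 CPM in the controls and 308, 358 and 331 CPM at day 7, with no overlap (−0.41 ± 0.12, adjusted p = 0.0245). ATP6 (−0.38 ± 0.12, adjusted p = 0.0444) and ATP8 (−0.42 ± 0.14, adjusted p = 0.0467) share 43 bases of the same transcript, so reads there cannot be assigned to one of them. The calls of these 3 genes were fragile. Dropping any library but control replicate 1 and day-7 replicate 2 ended that of ND3 (adjusted p up to 0.103). Dropping any one of the 6 libraries ended that of ATP6 (up to 0.123), and dropping any but day-7 replicate 2 that of ATP8 (up to 0.163). CYTB, the one mitochondrial subunit of complex III, narrowly missed the threshold at −0.43 ± 0.15 (SE, adjusted p = 0.0501).

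The mitochondrial subunits of complex IV showed smaller differences. COX1, COX2 and COX3 form the catalytic core of cytochrome c oxidase. At day 7 their log2 fold changes were −0.31 ± 0.13 (SE, adjusted p = 0.108), −0.11 ± 0.14 (SE, adjusted p = 0.595) and −0.27 ± 0.12 (SE, adjusted p = 0.117). COX1 was at 17743, 20702 and 19056 CPM in the control libraries, 14874, 15998 and 15437 CPM at day 7, 19043, 17392 and 17045 CPM at day 14 and 21984, 20231 and 19289.6 CPM at day 28: the day-7 libraries were below the controls, and the day-28 range overlapped the upper controls. ND5 was −0.28 ± 0.12 and ND6 −0.17 ± 0.19 at day 7, neither of them called.

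**Figure D3:**
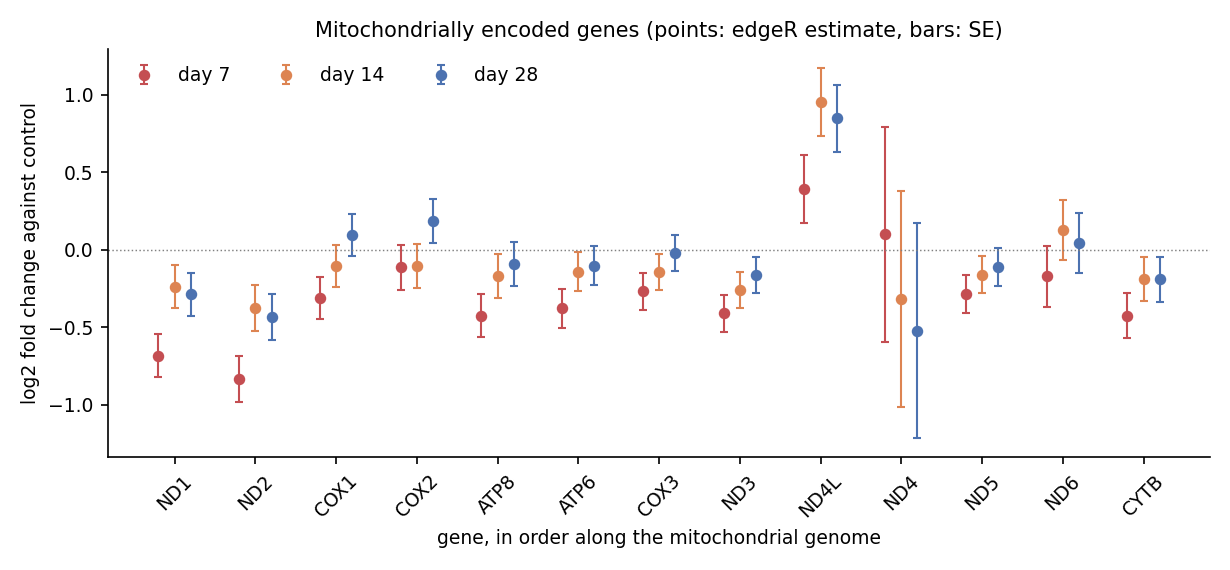
Log2 fold change against control of the 13 mitochondrially encoded genes in their order along the genome at days 7, 14 and 28; points are edgeR estimates and bars their SE. ND2 lies lowest at day 7, at −0.83, followed by ND1, and ND4L lies highest at days 14 and 28.

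ND4L was the 1 mitochondrial gene called higher in any injured group. ND4L, a small membrane subunit of complex I, was at 82.4, 69.2 and 73.1 CPM in the control libraries, 71.8, 139.6 and 83.8 CPM at day 7, 157, 126 and 153 CPM at day 14 and 159, 132 and 113 CPM at day 28. It was called higher at day 14 (0.96 ± 0.22, adjusted p = 0.0463) and at day 28 (0.85 ± 0.22, adjusted p = 0.0199), and the libraries of both groups lay above the controls. The day-14 call was lost without any one of the 6 libraries compared (adjusted p up to 0.167), and the day-28 call without control replicate 2 or 3 or day-28 replicate 1 (up to 0.0774). ND4, read from the same bicistronic transcript and sharing 7 bases with ND4L, was listed at 53.4, 173 and 25.0 CPM in the control libraries, 99.7, 71.9 and 98.2 CPM at day 7, 40.8, 58.7 and 103 CPM at day 14 and 89.4, 72.3 and 13.8 CPM at day 28. That is about the level of ND4L and far below its neighbour ND5 (3506, 3951 and 3544 CPM in the controls), and its libraries spread widely within each group. Per base, ND4L too was low in the controls, at 515 ± 53.4 TPM against 2589 ± 358 for ND3 and 4091 ± 272 for ND5. What lowers the counts of ND4 and ND4L, and its part in the ND4L calls, was not tested. ND4 was −0.32 at day 14 and −0.52 at day 28 against control. Its SE of 0.69 to 0.70 on the log2 scale leaves these differences unresolved. The mitochondrial ribosomal RNA rows held 2 and 1 counts over all libraries, so they could not be used as a reference.

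Because the mitochondrial genes come from shared precursors, each was also read against COX1 in the same library, a measure that no scaling of libraries affects. ND2 counts were 33.9, 35.1 and 35.1% of COX1 in the controls, 25.6, 25.2 and 21.8% at day 7, 29.4, 28.9 and 27.9% at day 14 and 26.6, 23.2 and 22.2% at day 28. All 9 injured libraries were below all 3 controls, and day 14 lay between the controls and the other days. ND1 counts were 44.8, 43.6 and 43.7% of COX1 in the controls, 36.6, 34.2 and 31.4% at day 7, 39.2, 40.9 and 40.4% at day 14 and 37.1, 32.0 and 31.7% at day 28, again with no overlap with the controls. ATP6 stood at 47.2, 44.2 and 45.4% in the controls and 40.5, 39.9 and 38.4% at day 28, where the 3 libraries were below every control, while its day-7 range overlapped them. CYTB likewise lay below the controls at day 7 and day 28 only, at 25.0, 25.0 and 24.8% and 23.5, 22.1 and 20.5% against 28.1, 27.7 and 25.1%. COX2 lay above the controls at day 7 and day 28, at 28.4, 26.6 and 26.4% and 25.6, 25.1 and 24.7% against 23.8, 24.0 and 23.1%. COX1 itself took a larger share of all mitochondrial counts in every injured library than in any control. It was 29.1 to 29.7% in the controls and 30.6 to 32.3%, 29.99 to 31.8% and 32.1 to 33.99% at days 7, 14 and 28. As shares of those counts, ATP6 and ATP8 at day 28, ND3 and ND5 at days 14 and 28, CYTB at days 7 and 28 and ND1 at day 14 overlapped the controls. ND2 on all days and ND1 at days 7 and 28 still lay below them, and COX2 at days 7 and 28 and ND4L on all days above. These ratios and shares were chosen after their values were seen and carry no test. In designs of 3 against 3 libraries an exact two-sided permutation test cannot go below p = 0.1.

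**Figure D4:**
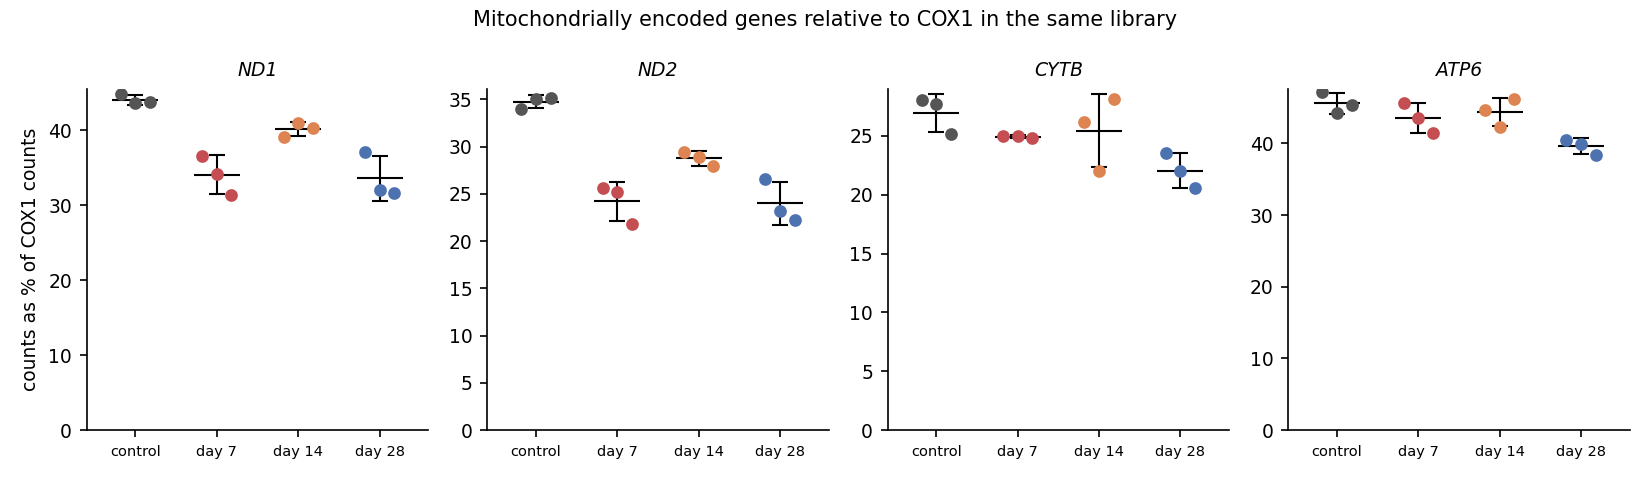
Counts of ND1, ND2, CYTB and ATP6 as a percentage of COX1 counts in the same library; points are libraries, bars means and whiskers SD (n = 3). For ND1 and ND2 every injured library lies below the 3 controls.

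Among nuclear members of complex I, 7 of 35 fell and 1 rose at day 7, with a median log2 fold change of −0.12, where 10.5% of all tested genes were lower and 15.6% higher. Ndufs4, an accessory subunit needed for a stable NADH-binding arm, fell most of the 71 members tested at day 7. It was at 53.7, 61.1 and 63.8 CPM in the control libraries, 29.6, 29.2 and 27.0 CPM at day 7, 44.5, 41.9 and 41.6 CPM at day 14 and 44.1, 32.9 and 32.1 CPM at day 28. The injured libraries were all below the controls, lowest at day 7. Its log2 fold change was −1.06 ± 0.13 (SE, adjusted p = 0.00025) at day 7 and −0.71 ± 0.12 (SE, adjusted p = 0.00284) at day 28, and both calls held in every alternative run (adjusted p up to 0.00212 and 0.0166). At day 14 it was −0.48 ± 0.12 (SE, adjusted p = 0.0668), not called, although day 14 was higher than day 7 (0.58 ± 0.12, adjusted p = 0.00876).

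Ndufb10, a membrane-arm subunit, was lowest at day 7, and its later libraries overlapped the controls. It was at 74.9, 77.8 and 70.6 CPM in the control libraries, 54.6, 59.0 and 54.2 CPM at day 7, 67.6, 72.1 and 73.5 CPM at day 14 and 75.3, 70.9 and 77.9 CPM at day 28. Only the day-7 libraries lay apart from all others, with −0.41 ± 0.08 (SE, adjusted p = 0.00342) against control, and it rose again to day 14 (0.35 ± 0.08, adjusted p = 0.0119) and to day 28 (0.42 ± 0.08, adjusted p = 0.00507). All 3 calls held in every alternative run. Ndufb4, another membrane-arm subunit, fell from 58.5, 64.2 and 71.0 CPM to 42.7, 44.7 and 43.4 CPM at day 7 (−0.57 ± 0.11, adjusted p = 0.00368), without overlap. Ndufs7, which carries the last iron-sulphur cluster before ubiquinone, fell from 43.9, 46.6 and 43.8 to 35.0, 29.1 and 32.3 CPM (−0.48 ± 0.10, adjusted p = 0.00543). Both of these calls held in every alternative run. Copies of Ndufb4 listed under other names carried fewer counts than Ndufb4, and reads may be divided among them.

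The remaining complex I calls at day 7 were smaller and less secure. Ndufb8 (−0.28 ± 0.07, adjusted p = 0.0149) was no longer called once control replicate 2 or 3 or day-7 replicate 2 was left out (adjusted p up to 0.0623). Ndufa10 (−0.39 ± 0.11, adjusted p = 0.0202), whose row is wholly overlapped by Ppp1r7 on the opposite strand, was not called once control replicate 1 or 3 was dropped, or either of day-7 replicates 2 and 3 (up to 0.0637). Ndufs3 (−0.31 ± 0.11, adjusted p = 0.0495), a subunit of the arm that takes electrons to ubiquinone, was not called without any one of the 6 libraries (up to 0.164). Its call was also lost with RLE scaling, without a filter, with the replicate block and with only the 2 groups compared. Ndufb9 was the 1 nuclear member that rose at day 7, from 52.2, 51.6 and 50.8 to 59.0, 63.0 and 66.5 CPM (0.29 ± 0.09, adjusted p = 0.0314), and at day 28 it reached 66.3, 63.7 and 63.2 CPM (0.32 ± 0.09, adjusted p = 0.0246). Both groups lay above all controls, but the day-7 call was lost without any control, day-7 replicate 2 or day-7 replicate 3 (adjusted p up to 0.143) and the day-28 call without any one of the 6 libraries (up to 0.0916).

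Other nuclear core subunits of complex I were not called at day 7. There, Ndufs1, the largest of the iron-sulphur proteins, was −0.27 ± 0.11, Ndufs8 was −0.23 ± 0.11, and Ndufv1, which binds NADH, was −0.20 ± 0.08. In all, 23 nuclear complex I members were called in none of the 6 comparisons, with log2 fold changes against control from −0.27 to 0.12 at day 7, −0.83 to −0.01 at day 14 and −0.55 to 0.38 at day 28. The lowest at days 14 and 28 belonged to Ndufa10l1, a copy of Ndufa10 that was at 15.7, 7.11 and 7.54 CPM in the control libraries, 7.63, 12.1 and 13.3 CPM at day 7, 11.6, 5.09 and 0.425 CPM at day 14 and 6.77, 14.0 and 0 CPM at day 28. Its libraries spread too widely within groups to be ordered.

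Complex II links the tricarboxylic acid cycle to the chain. Its flavoprotein Sdha was at 132, 104 and 119.6 CPM in the control libraries, 96.3, 85.1 and 87.6 CPM at day 7, 115, 106 and 115 CPM at day 14 and 116, 104 and 113 CPM at day 28. It fell at day 7 (−0.40 ± 0.10, adjusted p = 0.013), when all libraries were below the controls, and was higher at day 14 than at day 7 (0.32 ± 0.10, adjusted p = 0.0419). The day-7 call was lost only without control replicate 1 (adjusted p = 0.0588), and the rise to day 14 without day-7 replicate 2 or 3 or any day-14 replicate (up to 0.123). Sdhd, a membrane anchor, fell at day 7 too (−0.30 ± 0.09, adjusted p = 0.0316), a call lost when control replicate 2 or 3 or any day-7 replicate was dropped (up to 0.12). The iron-sulphur subunit Sdhb and the anchor Sdhc were −0.06 ± 0.09 and −0.09 ± 0.11, not called. No complex II gene was called at day 14 or day 28 by edgeR or DESeq2, where 0 had an unadjusted p under 0.05.

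Complex III, which passes electrons from ubiquinol to cytochrome c, had no call against control on any day by edgeR without the block or by DESeq2 among its 8 nuclear members, with 1 unadjusted p under 0.05 at day 7 and none later. Their log2 fold changes ran from −0.31 to 0.17 at day 7, −0.24 to 0.03 at day 14 and −0.08 to 0.16 at day 28. Uqcrc2, a core subunit, was at 210.1, 175 and 214 CPM in the control libraries, 147, 165 and 172 CPM at day 7, 198, 183 and 232 CPM at day 14 and 213, 202 and 243 CPM at day 28. It was lowest at day 7 (−0.31 ± 0.12, adjusted p = 0.0851) and rose from day 7 to day 28 (0.44 ± 0.12, adjusted p = 0.0269). With the replicate block edgeR called it at day 7 too (−0.30, adjusted p = 0.0408). The call from day 7 to day 28 was lost without day-7 replicate 1 or 2 or day-28 replicate 3 (adjusted p up to 0.0996).

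In complex IV, 2 of 11 tested nuclear members fell and none rose at day 7, against 10.5% of all tested genes lower and 15.6% higher. Cox6c, a small nuclear subunit of the oxidase, was the one nuclear member called lower against control on all 3 days. It was at 71.1, 70.6 and 77.8 CPM in the control libraries, 43.5, 46.4 and 48.0 CPM at day 7, 50.5, 47.5 and 50.0 CPM at day 14 and 56.1, 51.4 and 49.9 CPM at day 28. The 9 injured libraries all lay below the 3 controls. Its log2 fold change was −0.67 ± 0.08 (SE, adjusted p = 0.000312) at day 7, −0.57 ± 0.08 (SE, adjusted p = 0.0135) at day 14 and −0.48 ± 0.08 (SE, adjusted p = 0.00256) at day 28, and the day-14 call was lost without control replicate 2 or 3 (adjusted p up to 0.0727). The 3 comparisons share their controls, so they are not independent. Cox8a, the ubiquitous isoform of subunit 8, was at 74.5, 88.4 and 78.0 CPM in the control libraries, 47.7, 53.4 and 54.7 CPM at day 7, 67.1, 57.9 and 64.7 CPM at day 14 and 81.0, 63.8 and 80.3 CPM at day 28. It fell at day 7 (−0.63 ± 0.12, adjusted p = 0.00253) and rose from day 7 to day 28 (0.53 ± 0.11, adjusted p = 0.00913), and both calls held in every alternative run.

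Cox5a and Cox5b, adjacent subunits that bind the catalytic core, stood apart at day 28 in the other direction. Cox5a was at 78.7, 70.5 and 81.1 CPM in the control libraries, 71.7, 84.7 and 101 CPM at day 7, 71.6, 88.7 and 98.9 CPM at day 14 and 118, 117 and 133 CPM at day 28, so the 3 day-28 libraries were above all others. It rose against control (0.67 ± 0.14, adjusted p = 0.0077), a call that held in every alternative run, and against day 7 (0.51 ± 0.14, adjusted p = 0.0273), a call lost without day-7 replicate 1 or 2 or day-28 replicate 3 (up to 0.0918). A transcribed row described as similar to Cox5a averaged 4.97 CPM in the controls and 10.2 CPM at day 28, and reads may be shared with it. Cox5b was at 119.5, 106 and 108 CPM in the control libraries, 108, 115 and 117 CPM at day 7, 98.1, 100.5 and 123 CPM at day 14 and 147, 133 and 158 CPM at day 28. It was higher at day 28 than in the controls (0.40 ± 0.11, adjusted p = 0.0245), at day 14 (0.45 ± 0.11, adjusted p = 0.0385) and at day 7 (0.37 ± 0.11, adjusted p = 0.0325). The day-28 libraries lay above all others. Dropping control replicate 2 or 3 or day-28 replicate 1 or 3 ended the call against control (adjusted p up to 0.0934), dropping any but day-28 replicate 2 ended that against day 7 (up to 0.113), and dropping any but day-14 replicate 3 ended that against day 14 (up to 0.132).

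**Figure D5:**
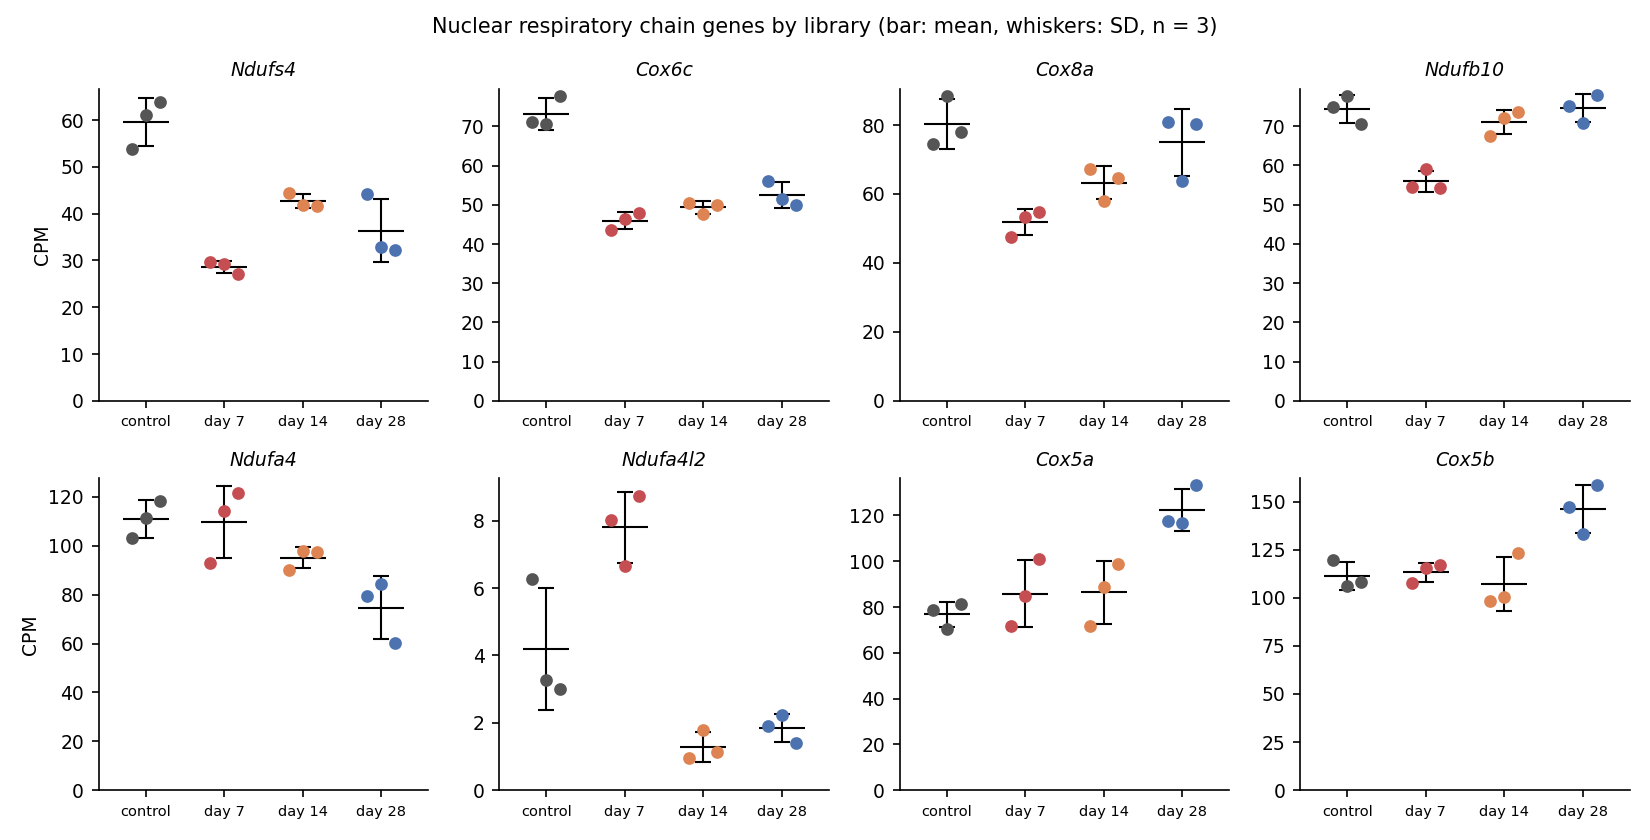
CPM of 8 nuclear members in each library, with the mean and SD of 3 libraries. Ndufs4 and Cox6c lie below the controls in all injured libraries, Cox8a and Ndufb10 are lowest at day 7, Ndufa4l2 is low at days 14 and 28, and Cox5a and Cox5b are highest at day 28.

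Several subunits exist as pairs whose use depends on tissue or oxygen. Ndufa4, counted under complex I here by its symbol but now placed with complex IV, was at 103, 111 and 118 CPM in the control libraries, 93.1, 114 and 122 CPM at day 7, 90.1, 98.1 and 97.3 CPM at day 14 and 79.5, 84.4 and 60.1 CPM at day 28. It was called lower at day 28 (−0.57 ± 0.14, adjusted p = 0.0134), with no overlap with the controls, and the call was lost without control replicate 3 (adjusted p = 0.0526). It was also lower at day 28 than at day 7 (−0.55 ± 0.14, adjusted p = 0.0159), but not without day-7 replicate 2 or 3 (up to 0.0656). Its paralogue Ndufa4l2, a gene known to be induced by low oxygen and to be abundant in pericytes, was at 6.27, 3.28 and 3.00 CPM in the control libraries, 8.03, 6.64 and 8.72 CPM at day 7, 0.946, 1.79 and 1.13 CPM at day 14 and 1.90, 2.23 and 1.41 CPM at day 28. The 3 day-7 libraries lay above all others and the day-14 and day-28 libraries below all others. Against control it was 0.90 ± 0.32 (SE, adjusted p = 0.0608) at day 7, called by DESeq2 but not by edgeR, and it fell at day 14 (−1.69 ± 0.34, adjusted p = 0.0322) and day 28 (−1.18 ± 0.33, adjusted p = 0.0301).

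Between injured groups the difference in Ndufa4l2 was larger: −2.59 ± 0.35 (SE, adjusted p = 0.000712) from day 7 to day 14 and −2.07 ± 0.34 (SE, adjusted p = 0.00241) from day 7 to day 28. These between-day calls held in every alternative run that could fit them; a minimum of 5 CPM removed the gene. The calls against control were lost without any control, day-14 replicate 1 or day-14 replicate 3 for day 14 (adjusted p up to 0.119), and without control replicate 1 or day-28 replicate 1 or 3 for day 28 (up to 0.129). Pericyte and vascular markers summed to 885 to 912 CPM in the controls, 1170.0 to 1298 CPM at day 7, 744 to 879 CPM at day 14 and 646 to 925 CPM at day 28, with none of the 11 at 0. Of these 11, 6 rose and 2 fell at day 7, against 15.6% and 10.5% of all genes. At day 14, 0 rose and 1 fell, against 1.45% and 0.995%, but 0 fell once any one control was left out. At day 28, 4 rose and 2 fell, against 11% and 7.51%. From day 7 to day 14, 0 rose and 7 fell, against 7.59% and 12.0%. From day 7 to day 28, 0 rose and 4 fell, against 7.89% and 10.8%. The part of these markers in the Ndufa4l2 result was not tested.

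Cox4i2, the oxygen-responsive partner of Cox4i1 and not a member by the rule, was at 2.92, 3.28 and 3.00 CPM in the control libraries, 5.65, 4.80 and 5.36 CPM at day 7, 2.33, 2.72 and 3.01 CPM at day 14 and 3.00, 3.86 and 1.86 CPM at day 28. It was called higher at day 7 (0.78 ± 0.25, adjusted p = 0.0408), when Cox4i1 was −0.26 ± 0.11 (SE, adjusted p = 0.0944). As a share of Cox4i1 counts, Cox4i2 was 0.931, 1.32 and 0.927% in the controls and 2.18, 1.99 and 2.24% at day 7, with no overlap, and the later days overlapped the controls. Cox6b2, known from testis, was at 7.97, 7.83 and 6.93 CPM in the control libraries, 13.5, 9.11 and 8.22 CPM at day 7, 4.04, 5.74 and 5.42 CPM at day 14 and 4.57, 6.43 and 3.37 CPM at day 28. It was highest at day 7 and was lower at day 14 (−1.02 ± 0.26, adjusted p = 0.019) and day 28 (−1.10 ± 0.26, adjusted p = 0.0136) than at day 7. The first call was lost without day-7 replicate 1 or day-14 replicate 1 (adjusted p up to 0.0745). The second was lost with only the 2 groups compared (adjusted p = 0.0549 in edgeR). The row named Cox6b1 is typed as a pseudogene and averaged 0.598 CPM in the controls, so the usual partner of Cox6b2 was not measured here.

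Cox6a2, the isoform of heart and skeletal muscle, was at 1.11, 2.48 and 1.36 CPM in the control libraries, 1.54, 0.973 and 1.59 CPM at day 7, 0.109, 0.378 and 0.460 CPM at day 14 and 1.10, 0.333 and 0.193 CPM at day 28, a small fraction of its ubiquitous partner Cox6a1 (114, 105 and 112 CPM in the controls). Cox6a2 was lower at day 14 than at day 7 (−2.10 ± 0.66, adjusted p = 0.0451), a call lost without any one of the 6 libraries (adjusted p up to 0.139). Against control it was −2.36 at day 14 and −1.60 at day 28, not called by edgeR, with all libraries of both days below the controls. Skeletal muscle markers summed to 256 to 302 CPM in the controls, 1054 to 1915 CPM at day 7, 251 to 717 CPM at day 14 and 149 to 339 CPM at day 28, with Myog at 0. Of 12 tested markers 3 were called higher and 1 lower at day 7, against 15.6% and 10.5% of all genes. At day 14, 3 were called higher and 0 lower, against 1.45% and 0.995%, but 0 once any one control was left out. From day 7 to day 14, 0 rose and 2 fell, against 7.59% and 12.0%. The part of these markers in the Cox6a2 values was not tested. Cox6a1 was 0.16 ± 0.10, −0.09 ± 0.10 and 0.24 ± 0.10 at days 7, 14 and 28, none called. Cox7a2 and Cox7a2l, the latter a factor that joins complexes III and IV, were −0.05 ± 0.10 and −0.06 ± 0.12 at day 28, and Cox7b was 0.21 ± 0.19, with none called on any day.

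The filter on low counts removed 7 members. Cox7b2 and Cox8c, known from testis, had 0 counts in all 12 libraries, and Cox8b and Cox7a1, isoforms of heart, muscle and brown fat, had 3 and 7 counts in all. The brown fat gene Ucp1 was at 0 as well. A count of 0 in a library allows up to 3 counts. Cox7a2l2 had 46 counts. Ndufa1 and Ndufs6, which encode constitutive complex I subunits, had only 17 and 32 counts, while a row under another name described as Ndufs6 held 1471, so these rows cannot be read as absence of the gene. Uqcrb held 3955 counts beside 7025 in its pseudogene row, and Ndufa13 appears as a pseudogene row with 3 counts beside a similar gene with 10429, so values for these subunits are uncertain. The Cox7a1 row was overlapped over 27548 bases by an opposite-strand row with 2665 counts, so its low count cannot be read as absence either.

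At day 14 most of the chain lay close to control and slightly below it, with Cox6a2 and Ndufa4l2 much lower. Of the 58 nuclear members 2 fell (Cox6c and Ndufa4l2) and none rose, and of the 13 mitochondrial ones 1 rose (ND4L), where 2.45% of all tested genes were called, 1.45% higher and 0.995% lower. DESeq2 called 6 nuclear members, all lower: those 2 with Ndufs4, Ndufb8, Ndufb11 and Cox6a2. The log2 fold change was below 0 for 55 of 58 nuclear members (median −0.16) and for 11 of 13 mitochondrial ones (median −0.16), against a median of 0.00 over all genes. In 18 of 58 nuclear members all day-14 libraries were below all controls, against 13.2% of tested genes, and in 0 were all above, against 11.5%. Of the mitochondrial members 2 lay wholly below and 1 wholly above. Leaving out control replicate 2 or 3 left no nuclear call at day 14, leaving out control replicate 1 or day-14 replicate 1 or 3 left 1, and leaving out any one control or day-14 library left no mitochondrial call.

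At day 28, 3 nuclear members rose (Cox5a, Cox5b, Ndufb9) and 4 fell (Ndufs4, Cox6c, Ndufa4, Ndufa4l2), and ND4L was the 1 mitochondrial gene called, where 18.5% of all tested genes were called, 11% higher and 7.51% lower. The share of nuclear members called, 7 of 58, was below that background. The medians were −0.03 over nuclear and −0.10 over mitochondrial members. All day-28 libraries lay above all controls in 6 nuclear and 1 mitochondrial members, against 20.9% of tested genes, and below in 12 and 1, against 19.6%. Without control replicate 3 or day-28 replicate 3, 4 nuclear calls were left. Without day-28 replicate 1, whose ND1 and ND2 were the highest of its group, ND1 and ND2 were called lower (adjusted p = 0.0378 and 0.0182) and ND4L was not called. Without control replicate 2 or 3 no mitochondrial gene was called.

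Between injured groups, most nuclear members stood higher at day 28 than before. From day 7 to day 14, 3 nuclear members rose and 4 fell and 1 mitochondrial gene (ND1, 0.44 ± 0.14 (SE, adjusted p = 0.0431)) rose, against 19.5% called over all genes, 7.59% higher and 12.0% lower. All day-14 libraries lay above all day-7 libraries in 9 nuclear and 4 mitochondrial members, against 15.8% of all genes, and below in 10 nuclear members, against 19.2%. The ND1 call was lost without any one of the 6 libraries (adjusted p up to 0.112), and the nuclear count dropped from 7 to 3 or 4 without day-7 replicate 2 or 3 or day-14 replicate 1 or 3. From day 14 to day 28 only Cox5b was called among the nuclear members, and none of the mitochondrial ones by edgeR or DESeq2 or at an unadjusted p under 0.05, against 4.34% of all genes, 3.13% higher and 1.22% lower. The Cox5b call was lost without day-14 replicate 1 or 2 or any day-28 replicate, and without day-28 replicate 1 Ndufs4 was called instead, as lower. Of the rest, most lay a little higher: 52 of 58 nuclear members had a log2 fold change above 0 (median 0.14). All day-28 libraries were above all day-14 libraries in 22 nuclear and 2 mitochondrial members, against 12.6% of all genes, and below in 1 nuclear member, against 9.72%.

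From day 7 to day 28, 6 nuclear members rose and 3 fell, against 18.7% called over all genes, 7.89% higher and 10.8% lower. In 25 of 58 nuclear members and 7 of 13 mitochondrial ones all day-28 libraries lay above all day-7 libraries, against 17.6% of all genes, and below in 4 nuclear members, against 18.2%. edgeR called 0 mitochondrial genes, with 5 at an unadjusted p under 0.05, and DESeq2 called 5, all higher at day 28: ND1, ND2, COX1, COX3 and ATP6. Ndufv3, an accessory complex I subunit, rose (0.30 ± 0.09, adjusted p = 0.0421), a call lost without day-7 replicate 1 or 2 or any day-28 replicate. Ndufv2, the partner of the NADH-binding subunit, was lower at day 14 than at day 7 (−0.32 ± 0.09, adjusted p = 0.0308), a call lost without day-7 replicate 2 or 3 or day-14 replicate 1 or 3. Without day-7 replicate 2, 4 nuclear members were called from day 7 to day 28, and without day-28 replicate 3, 5. Without day-7 replicate 3, 7 were. Leaving out day-28 replicate 3 or day-7 replicate 2 gave 2 and 1 mitochondrial calls.

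Other genes of the same system were read from lists compiled with earlier results known. Of 18 nuclear ATP synthase genes, 1 rose and 1 fell at day 7 and the same counts held at day 28: Atp5e, the epsilon subunit, fell (−0.31 ± 0.10 and −0.38 ± 0.10) and the inhibitor Atpif1 rose (0.30 ± 0.09 and 0.32 ± 0.09). Their median was −0.09 at day 7. Of 39 assembly factors 4 fell and 1 rose at day 7, a share near the 10.5% of all genes lower and below the 15.6% higher. Coa5, needed for complex IV assembly, was −0.56 ± 0.08 (SE, adjusted p = 0.000566), Cox17, a copper chaperone of complex IV, was −0.52 ± 0.16 (SE, adjusted p = 0.032), and Uqcc1, for complex III, was −0.40 ± 0.10 (SE, adjusted p = 0.0136). Of 73 mitochondrial ribosomal protein genes 1 rose and none fell at day 7, and 2 rose and 1 fell at day 28, with medians of 0.02 and 0.01. For the ribosomal list the shares lay far below the 26.1% and 18.5% of all genes.

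Regulators of mitochondrial biogenesis were lower at day 7 in 4 of 15 cases, with none higher, against 10.5% lower and 15.6% higher over all genes. Without control replicate 1 or 2, 2 regulators were called. Ppargc1a, the coactivator that drives respiratory genes, was at 6.79, 7.03 and 6.47 CPM in the control libraries, 3.23, 2.26 and 0.833 CPM at day 7, 6.15, 4.37 and 5.91 CPM at day 14 and 9.07, 4.99 and 2.50 CPM at day 28. Its day-7 libraries were all below the controls (−1.68 ± 0.48, adjusted p = 0.0243), and at day 28 its libraries ranged from below to above them (−0.29 ± 0.46, adjusted p = 0.711). Ppargc1b, its relative, was at 25.6, 21.0 and 25.2 CPM in the control libraries, 16.5, 12.4 and 13.6 CPM at day 7, 26.1, 22.2 and 25.6 CPM at day 14 and 31.6, 28.5 and 32.1 CPM at day 28 and fell at day 7 (−0.76 ± 0.13, adjusted p = 0.00196). Of the DNA-binding factors that these coactivators serve, the 3 read here were not called: at day 7 Nrf1 was −0.05 ± 0.10, Gabpa −0.03 ± 0.11 and Esrra −0.16 ± 0.14. Tfam, which packages mitochondrial DNA, was −0.29 ± 0.14 (SE, adjusted p = 0.147), and the mitochondrial RNA polymerase Polrmt was −0.23 ± 0.18 (SE, adjusted p = 0.372). Tfb2m, its initiation partner, was the 1 of 26 genes of mitochondrial transcription and replication called at day 7 (−0.43 ± 0.12, adjusted p = 0.0238).

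Cytochrome c itself, the carrier between complexes III and IV (Cycs), was 0.10 ± 0.22 at day 7, 0.52 ± 0.22 at day 14 and 0.56 ± 0.22 at day 28, and cytochrome c1 (Cyc1) was −0.17 ± 0.13, −0.07 ± 0.13 and 0.04 ± 0.13, with no call. Coq3, which makes ubiquinone, fell at day 7 (−0.72 ± 0.13, adjusted p = 0.0023) and day 28 (−0.51 ± 0.13, adjusted p = 0.0194). In the tricarboxylic acid cycle 3 of 18 genes fell at day 7 and none rose, against 10.5% and 15.6% of all genes. Idh2, mitochondrial isocitrate dehydrogenase, fell at day 7 (−0.91 ± 0.19, adjusted p = 0.00464) and day 28 (−0.96 ± 0.19, adjusted p = 0.005). At day 14 edgeR called 0 genes in any of these lists, and 0 to 2 genes of each had an unadjusted p under 0.05. The list counts are from edgeR alone. Without day-7 replicate 3, 0 ATP synthase genes were called at day 7, 3 assembly factors fell and 1 rose, 3 biogenesis regulators fell, 3 cycle genes fell, and 1 ribosomal gene fell with none rising. Leaving out each of the 6 libraries in turn gave 0 to 1 calls of ATP synthase genes, 0 to 3 of ribosomal ones, 2 to 3 lower assembly factors and 1 to 3 lower cycle genes.

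Marker genes of other cell types moved with the injured groups. At day 7 macrophage markers rose in 13 of 13 cases and cell cycle markers in 11 of 11, and urothelial markers fell in 7 of 16, against 15.6% higher and 10.5% lower over all genes. Erythroid markers rose in 7 of 7, but in 0 without day-7 replicate 3 or control replicate 1 and in 1 without control replicate 2. They summed to 196, 328 and 866 CPM in the controls, 505, 1103 and 9648 CPM at day 7, 109 to 223 CPM at day 14 and 206 to 284 CPM at day 28, so day-7 replicate 1 lay within the control range. Macrophage markers summed to 591 to 694 CPM in the controls, 2098 to 2941 CPM at day 7, 1002 to 1992 CPM at day 14 and 1802 to 2793 CPM at day 28, and urothelial markers to 9785 to 10391 CPM in the controls, 6407 to 7964 CPM at day 7, 9410.0 to 10763 CPM at day 14 and 8012 to 10664 CPM at day 28, with no marker of either list at 0. Of 14 smooth muscle markers 4 rose and 4 fell at day 7, and 3 fell at day 28; they summed to 33572 to 36600.2 CPM in the controls, 30605 to 50943 CPM at day 7, 30845 to 39392 CPM at day 14 and 14091 to 30612 CPM at day 28. White adipocyte markers rose in 6 and fell in 1 of 9 at day 7 and summed to 502 to 557 CPM in the controls, 384 to 680.3 CPM at day 7, 295 to 395 CPM at day 14 and 522 to 573 CPM at day 28. Fibroblast markers rose in 2 of 8 at day 7, fell in 3 and rose in 1 at day 28, and summed to 20047 to 25785 CPM in the controls, 34108 to 41369 CPM at day 7, 9658 to 14366 CPM at day 14 and 7955 to 17177 CPM at day 28. Without day-7 replicate 3, 13 macrophage and 10 cell cycle markers rose and 8 urothelial markers fell. In that fit 3 smooth muscle markers rose and 1 fell, 6 white adipocyte markers rose and 1 fell, 0 fibroblast markers were called, and 6 pericyte and 3 skeletal muscle markers rose. Only 1 smooth muscle marker was called lower without any one of the 6 libraries but day-7 replicate 1, without which 6 were. Cell cycle markers summed to 113 to 135 CPM in the controls, 567 to 807 CPM at day 7, 118 to 147 CPM at day 14 and 162 to 329.6 CPM at day 28. At day 28 macrophage markers rose in 13 of 13 cases and cell cycle markers in 7 of 11. Urothelial markers fell in 6 of 16 and rose in 1, and white adipocyte markers rose in 4 of 9. No erythroid marker was called there. Over all genes the day-28 shares were 11% higher and 7.51% lower, for the smooth muscle and fibroblast counts too. Leaving out 1 library at a time gave 11 to 13 higher macrophage and 4 to 8 higher cell cycle markers at day 28. The part of these marker changes in the values of the respiratory chain genes was not tested.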

How the data were processed

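RNA of 12 bladder libraries was depleted of ribosomal RNA and sequenced as single 50-base reads, per the labels' protocols. Tools named in the submitters' processing notes are HISAT2 2.1.0, an aligner, HTSeq 0.11.2, a read counter, and bcl2fastq, with the build rn6; the strand setting was not given in the sources used here. The authors deposited 1 table with raw counts per gene, which were tested here, and TPM values, which were used only to compare levels between genes. 

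Genes with low counts were removed with filterByExpr (minimum count 10, minimum total 15), leaving 17687. Counts were scaled by TMM and fitted in edgeR 4.0.16 (R 4.3.3) as 1 quasi-likelihood model of 4 groups over all 12 libraries, with 6 comparisons and Benjamini-Hochberg adjustment within each; the SE of a log2 fold change is its size divided by the square root of F. The fit was tested on simulated counts. Alternatives were DESeq2 1.42.0, RLE scaling, other filters, 2-group fits, a replicate block, library sizes without mitochondrial and haemoglobin genes, and leaving out each library, which for the other gene lists was added after seeing the data. Members, gene lists, promoter motifs and the genes named (all mitochondrial members, the smallest p-values per comparison and direction, isoform pairs, the highest and lowest levels) were chosen with earlier results of these data known, and the YY1 and NRF1 letters were shortened after matches were seen. Same-numbered libraries of different groups were not paired in the main fit, as the labels state no pairing. Correlations of their deviations from the group means ran from −0.051 to 0.204, over 0.1 in 7 of 18 pairs. Libraries of different numbers were not correlated for reference, so whether the numbers mark a pairing was not settled. Promoter letters were searched in RefSeq windows (GRCr8); 55 members matched by gene ID and 2 by symbol. The files use rn6, so no other coordinate was combined with them.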

Additional observations from a re-analysis of the deposited data

Results flagged for a closer look

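Members whose level differed between injured groups, by the test of that difference, are listed with their log2 fold change. There were 18 such calls over 14 genes.

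From day 7 to day 14, Ndufa4l2 (−2.59), Cox6a2 (−2.10), Cox6b2 (−1.02) and Ndufv2 (−0.32) were lower, and Sdha (0.32), Ndufb10 (0.35), ND1 (0.44) and Ndufs4 (0.58) were higher. From day 14 to day 28, Cox5b was higher (0.45). From day 7 to day 28, Ndufa4l2 (−2.07), Cox6b2 (−1.10) and Ndufa4 (−0.55) were lower. Over the same interval Ndufv3 (0.30), Cox5b (0.37), Ndufb10 (0.42), Uqcrc2 (0.44), Cox5a (0.51) and Cox8a (0.53) were higher. The 3 comparisons share groups and are not independent. Groups of 3 libraries were not searched for single outlying libraries.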

How the results depend on the processing

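No called member changed sign under any alternative. Of 46 calls, 17 were kept in every alternative run, and of 593 alternative fits of these calls 147 lost the call. Where losses are given gene by gene above, mostly left-out libraries are named. Some of those calls were also lost under another filter or fit. DESeq2 gave 9 mitochondrial calls at day 7, 2 at day 28, 3 from day 7 to day 14 and 5 from day 7 to day 28, and 6 nuclear calls at day 14 and 5 from day 14 to day 28. RLE scaling, and library sizes without mitochondrial and haemoglobin genes, each gave 2 mitochondrial calls from day 7 to day 14; neither moved the median of all genes by over 0.02 on the log2 scale. A minimum of 5 CPM gave 0 mitochondrial calls at day 14, 2 from day 7 to day 14 and 1 from day 7 to day 28, and 1 nuclear call at day 14 and 2 from day 14 to day 28. Without a filter there were 3 mitochondrial calls at day 7, 0 from day 7 to day 14, and 0 nuclear calls from day 14 to day 28. With only the 2 groups compared there were 0 mitochondrial calls from day 7 to day 14, and 0 nuclear calls from day 14 to day 28 and 4 from day 7 to day 28.

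The replicate block was fitted although the labels state no pairing. It gave 0 mitochondrial calls at day 14 and 2 from day 7 to day 14, and 2 nuclear calls from day 14 to day 28. It moved no other count of calls by over 1.5 times. Leaving out 1 library gave 7 to 10 nuclear calls at day 7, 0 to 2 at day 14, 4 to 7 at day 28, 3 to 7 from day 7 to day 14, 0 to 1 from day 14 to day 28 and 4 to 8 from day 7 to day 28. The same gave 2 to 4 mitochondrial calls at day 7, 0 at day 14, 0 to 2 at day 28, 0 to 1 from day 7 to day 14, 0 from day 14 to day 28 and 0 to 2 from day 7 to day 28. Over all genes the count changed by over 1.5 times at day 14 (433, against 1360 by DESeq2 and 251 at 5 CPM), from day 7 to day 14 (3457, against 2195 with 2 groups) and from day 14 to day 28 (768, against 1647 by DESeq2 and 42 with 2 groups). The background shares rest on these counts, which single libraries also moved by over 1.5 times: at day 14 to 16, 22 and 38 without control replicate 2, 3 and 1 and to 122 without day-14 replicate 3; at day 7 (4622) to 3061 without day-7 replicate 2 and 3078 and 3081 without control replicates 1 and 2; at day 28 (3275) to 1971 and 2015 without control replicates 2 and 3. From day 7 to day 14 the count was 2160 without day-14 replicate 1 and 1959 without day-7 replicate 2, from day 14 to day 28 it was 261 to 367 without day-14 replicate 1 or 2 or day-28 replicate 2 or 3, and from day 7 to day 28 (3310) 1954 to 2163 without day-7 replicate 2 or 3 or day-28 replicate 3. Except where a filter or fewer libraries is the alternative itself, the cause was not tested. Depth limits Cox6a2 and Ndufa4l2 most, at a few CPM.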

Other observations

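Genes of glycolysis and of the response to low oxygen, read beside the respiratory chain, moved in both directions. At day 7, 5 of 23 glycolysis genes rose and 4 fell. Slc16a3, which exports lactate, was 1.79 ± 0.27 (SE, adjusted p = 0.000855), Ldha, which makes lactate, was 0.97 ± 0.21 (SE, adjusted p = 0.00635), and Pgk1 was 0.98 ± 0.23 (SE, adjusted p = 0.00945). The muscle forms Eno3 (−1.56 ± 0.29, adjusted p = 0.00283) and Pfkm (−0.59 ± 0.14, adjusted p = 0.00832), the heart form Ldhb (−0.55 ± 0.14, adjusted p = 0.0128) and the insulin-responsive transporter Slc2a4 (−1.43 ± 0.41, adjusted p = 0.0264) fell. At day 28, 2 rose and 4 fell, and at day 14 Eno3 alone was called.

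Of 19 genes of the response to low oxygen, 6 rose and 3 fell at day 7. Car9, a carbonic anhydrase induced by low oxygen, rose (3.92 ± 0.79, adjusted p = 0.00426), being at 1.18, 0.547 and 1.39 CPM in the control libraries, 8.29, 15.0 and 24.1 CPM at day 7, 1.78, 8.25 and 2.76 CPM at day 14 and 6.44, 1.90 and 1.03 CPM at day 28, and Lox, which crosslinks collagen, was 3.29 ± 0.51 (SE, adjusted p = 0.000968). In the other direction, Egln3, an oxygen sensor, was −1.36 ± 0.23 (SE, adjusted p = 0.0017) and Vegfa, the vessel growth factor, fell at day 7 (−0.48 ± 0.13, adjusted p = 0.0165) and rose at day 28 (0.74 ± 0.13, adjusted p = 0.00247). Background shares of all genes called were 26.1% at day 7, 2.45% at day 14 and 18.5% at day 28. Without day-7 replicate 3, 5 glycolysis genes rose and 3 fell at day 7, and 3 genes of the response to low oxygen rose and 2 fell. Leaving out each of the 6 libraries in turn gave 2 to 5 lower glycolysis genes, and 3 to 6 higher and 1 to 2 lower genes of the response to low oxygen.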
